A study of Homo sapiens with 30 samples.

Results

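Semaphorins, plexins and neuropilins form 1 ligand and receptor system, and its genes were followed here through the response of H1299 cells to p53. The members are the protein-coding genes whose symbols begin with SEMA and a digit, with PLXN and a letter from A to D, or are NRP1 or NRP2. The count table holds 31 of them among 39359 genes, namely 20 semaphorins, 9 plexins and 2 neuropilins. H1299 is a human lung carcinoma line that lacks p53, and every culture was transiently transfected with a vector that expresses GFP, so that GFP-positive cells could be sorted at 6 h or 24 h post transfection. The control vector pGFP carries no p53. The other vectors drive wild type p53, RW mutant p53 (a missense mutant of the DNA-binding domain) or p53 O6-meG, whose DNA holds an O6-methylguanine in the codon that the RW mutant alters. In the p53 TM group the O6-meG vector was combined with 10 µM of O6-bzG, which inactivates the repair protein AGT, so that RNA polymerase can misread the lesion (transcriptional mutagenesis, TM). No other group received O6-bzG, so lesion and inhibitor cannot be told apart where p53 TM is set against wild type p53 or pGFP. Against p53 O6-meG, an effect of O6-bzG itself and one of the misread lesion cannot be told apart either. The p53 is expressed from a vector and not from the cell's own gene, and a level is a mean over sorted cells, in which fewer expressing cells and less RNA per cell cannot be told apart.

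Semaphorins are guidance ligands that were first known for steering axons and that also act on vessels, immune cells and epithelia. Class 3 members are secreted, classes 4, 5 and 6 span the membrane, and class 7 is held by a lipid anchor. Plexins are their receptors: the cytoplasmic part of a plexin acts on small GTPases of the R-Ras and Rap kind, and plexins of the B type also recruit exchange factors for RhoA. Most class 3 semaphorins cannot bind a plexin alone and first bind a neuropilin, which serves VEGF as a co-receptor too. In lung cancer SEMA3B and SEMA3F are known as candidate tumour suppressors of the short arm of chromosome 3, and SEMA3B is a known p53 target. SEMA3B and PLXNB2 also stand on the list of high-confidence p53 targets that the study used, which was compiled from earlier work.

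The 30 libraries form 10 groups of 3 replicates, with 32302699 to 71950532 reads counted on genes per library. Levels are CPM, counts scaled by the TMM-adjusted library size, and 1 read at the median depth was worth 0.0225 CPM. The epithelial keratins KRT8 and KRT18 and vimentin were at or above 111 CPM in every library, whereas of 10 markers of other cell types none passed 1.20 CPM anywhere. Their summed level was 0.606 to 1.62 CPM at 6 h and 1.5 to 3.73 CPM at 24 h. CDKN1A, the classical p53 target, served as a check of the labels. It stood at 34.0 to 50.5 CPM in all libraries of pGFP and RW mutant p53 and at 242 to 791 CPM in those of wild type p53. At 6 h it was 268, 50.04 and 261 CPM in replicates 1, 2 and 3 of p53 O6-meG and 65.7, 249 and 57.7 CPM in those of p53 TM. The titles of both replicates 2 contradict themselves, since they begin with 1 group name and end with the other, and CDKN1A lay against the label in each. The counts of called members at 6 h for p53 O6-meG and p53 TM are therefore given as labelled, with the grouping by the first part of the title, and without both libraries.

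In pGFP at 24 h the members spanned a range from 0.00180 (SEMA5B) to 12.8 CPM per kb of exon. Per length, as CPM per kb of exon, PLXNA1 (12.8 ± 1.34, SD, n = 3) and PLXNB2 (12.5 ± 1.08) led, and these 2 receptors did not differ beyond their spread. The ligands SEMA3C (7.98 ± 1.52) and SEMA4F (7.07 ± 0.133) followed, again within the spread of SEMA3C, and then SEMA4C (5.48 ± 0.354). Both neuropilins were low, NRP2 at 0.405 ± 0.122 and NRP1 at 0.288 ± 0.0294. PLXNB3 was near the bottom, at rank 26 of 31 with 0.0458 ± 0.00558. With wild type p53 at 24 h PLXNB2 stood first at 31.7 ± 2.34 and PLXNB3 at rank 4 with 6.37 ± 1.35 CPM per kb, in a range shared with SEMA4B (5.22 ± 0.404).

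The sequences around the gene starts were searched for the p53 response element, because members that respond to a transcription factor raise the question of whether its motif is written near them. The element is a pair of 10-letter half-sites. An exact pair, with a gap of at most 3 bases, lay within 5 kb of the start in 60 of 14345 tested protein-coding genes (0.42%) and in 0 of the 27 tested members. A looser form, chosen after the exact search had found none, allows up to 2 letters off in an ungapped site of 20 letters whose cores are intact. It occurs in 5.1% of those genes and in 1 of 27 tested members (3.7%), PLXNB1. That site is at chr3:48432694-48432713 (hg38), 2617 bases upstream of the gene start, and is shown in capitals with 30 bases to each side, on the minus strand on which PLXNB1 is transcribed.
PLXNB1: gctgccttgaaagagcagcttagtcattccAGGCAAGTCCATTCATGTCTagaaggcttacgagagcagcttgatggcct
Further down, the bases directly upstream of the start are shown for the member with the largest rise (PLXNB3), the member with the largest fall (PLXND1) and SEMA3F, a member that rose and whose stretch holds a single half-site, given in capitals. These come from RefSeq on GRCh38.p14, cut where the GENCODE gene begins: chrX:153763999-153764195 (plus strand), chr3:129606677-129606926 (minus strand) and chr3:50154808-50155044 (plus strand).
PLXNB3: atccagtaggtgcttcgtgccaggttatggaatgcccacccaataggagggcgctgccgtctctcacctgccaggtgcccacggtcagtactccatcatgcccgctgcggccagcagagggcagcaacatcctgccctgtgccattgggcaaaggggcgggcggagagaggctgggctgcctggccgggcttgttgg
PLXND1: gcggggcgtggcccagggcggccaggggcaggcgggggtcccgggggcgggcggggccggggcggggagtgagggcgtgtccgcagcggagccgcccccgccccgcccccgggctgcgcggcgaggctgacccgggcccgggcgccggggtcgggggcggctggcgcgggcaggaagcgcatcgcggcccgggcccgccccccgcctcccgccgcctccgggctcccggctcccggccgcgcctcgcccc
SEMA3F: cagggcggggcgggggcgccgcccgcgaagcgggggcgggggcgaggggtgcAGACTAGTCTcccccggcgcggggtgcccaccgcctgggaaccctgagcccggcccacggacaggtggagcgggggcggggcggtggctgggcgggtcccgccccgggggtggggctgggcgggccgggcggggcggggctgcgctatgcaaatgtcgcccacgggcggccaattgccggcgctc
A half-site on either strand stands in 5.58% of 35097 RefSeq promoters of 250 bases and in 2 of 48 (4.17%) of the members' promoters. The PLXNB3 stretch has a GC content of 65.0%, that of PLXND1 88.8% and that of SEMA3F 81.9%. No match in a window says only that these letters are not there.

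Wild type p53 changed the family on both sides of the ligand and receptor system. The filter on low counts left 27 members, and the adjusted P values come from edgeR's quasi-likelihood test over all 20875 genes that passed it. At 6 h 5 of 27 members rose and 0 fell, where 8.75% of all genes tested were called. At 24 h 11 rose and 3 fell, 14 of 27, where 34.9% of all genes were called. With a change of at least 2-fold as well, 4 members were called at 6 h (4.11% of all genes) and 7 at 24 h (11.1%). As a median the 27 members had log2 fold changes of 0.11 (6 h) and 0.40 (24 h), where all genes had medians of 0.02 and 0.01. The 5 members of 6 h, namely SEMA3B, SEMA3F, SEMA3G, PLXNB2 and PLXNB3, were also called at 24 h. Within the family, all 3 B-type plexins, both neuropilins, 3 of 7 class 3 semaphorins and 3 of 6 class 4 semaphorins rose at 24 h. The falls were those of PLXND1, SEMA4F and SEMA6C. The libraries of 24 h are paired by replicate number, and with the replicate as a block 19 of 27 members were called (46.9% of all genes), which adds rises of PLXNA3 and SEMA6A and falls of SEMA4C, SEMA4G and SEMA6B.

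**Figure D1:**
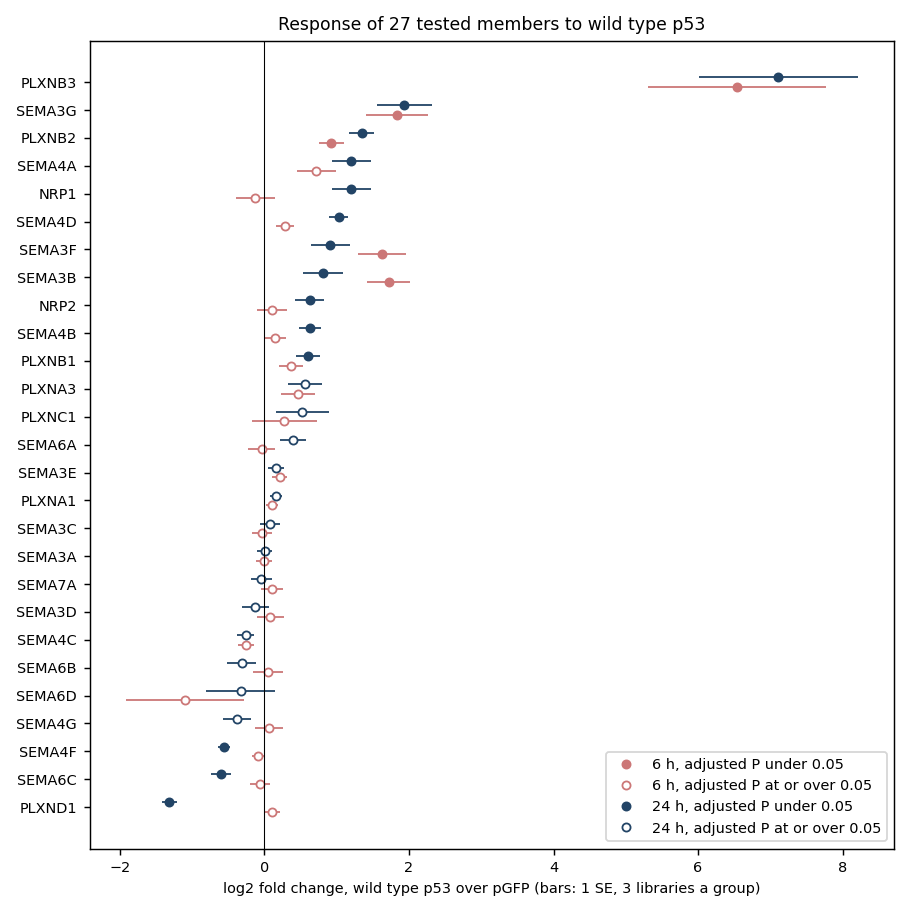
Log2 fold change of wild type p53 over pGFP for the 27 tested members at 6 h (red) and 24 h (blue), with bars of 1 SE from 3 libraries a group and filled points for an adjusted P under 0.05. Filled points stand on the right for 5 members at 6 h and 11 at 24 h, and on the left for PLXND1, SEMA6C and SEMA4F at 24 h.

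Of the secreted class 3 ligands, the 3 that rose lie on chromosome 3 and the other four on chromosome 7. SEMA3F (chr3:50155045-50189075) and SEMA3B (chr3:50267558-50277546) are 78.5 kb apart and SEMA3G (chr3:52433035-52445103) lies 2.16 Mb further on. SEMA3B stood at 0.666, 0.764 and 0.628 CPM in pGFP at 6 h and at 2.47, 1.79 and 2.49 CPM with wild type p53. All 3 libraries with p53 were above all 3 without, and the rise was 3.29-fold (log2 1.72 ± 0.30 SE, adjusted P = 0.00065). At 24 h SEMA3B was 2.64, 1.5 and 1.56 CPM in pGFP and 3.08, 3.78 and 3.06 CPM with wild type p53. The groups did not overlap, but replicate 1 of pGFP came close, and the difference of 0.81 ± 0.27 (adjusted P = 0.023) was lost without replicate 2 or 3 of pGFP or replicate 2 of wild type p53 (adjusted P of 0.11, 0.099 and 0.088, over a range of 0.0057 to 0.11 in 39 alternatives).

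SEMA3F, which signals mainly through NRP2, was at 0.424, 0.436 and 0.471 CPM in pGFP at 6 h and at 1.21, 1.30 and 1.59 CPM with wild type p53. This 3.08-fold rise (log2 1.62 ± 0.33, adjusted P = 0.0019) separated the groups fully. At 24 h its level in pGFP had itself gone up, to 3.49, 2.54 and 2.32 CPM, and with wild type p53 it was 5.39, 6.18 and 4.11 CPM. The groups stayed apart with a difference of 0.91 ± 0.27 (adjusted P = 0.0098), which was lost without replicate 2 of wild type p53 (0.053) or replicate 3 of pGFP (0.052), the highest values of 38 alternatives that go down to 0.00043.

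SEMA3G was the scarcest of these, with 0.222, 0.284 and 0.175 CPM in pGFP at 6 h and 0.794, 0.727 and 0.884 CPM with wild type p53 (log2 1.83 ± 0.42, adjusted P = 0.0055). At 24 h its values were 0.426, 0.477 and 0.460 CPM in pGFP and 1.96, 2.03 and 1.26 CPM with wild type p53. It did not overlap at either time, and the rise at 24 h was 3.82-fold (log2 1.94 ± 0.38, adjusted P = 0.00022). The class 3 genes of chromosome 7 lie within 4.44 Mb of each other and kept log2 fold changes between −0.13 ± 0.19 (SEMA3D) and 0.16 ± 0.11 (SEMA3E) at 24 h, and none was called. SEMA3C, a widely expressed ligand of NRP1 and NRP2, was the most abundant of them, with 48.7 ± 9.29 CPM in pGFP and 51.4 ± 6.67 CPM with wild type p53 at 24 h. SEMA3A, the classical collapsing factor of axons, stood at 17.7 ± 0.841 and 17.8 ± 2.5 CPM.

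Membrane-bound semaphorins were called in both directions at 24 h and not called at 6 h. SEMA4D, the ligand of PLXNB1, was at 13.9, 11.9 and 12.0 CPM in pGFP and at 30.1, 25.6 and 21.2 CPM with wild type p53 at 24 h. Its 2.04-fold rise (log2 1.03 ± 0.13, adjusted P = 9.7e-07) had the smallest P among the ligands. At 6 h it was 11.1, 11.8 and 11.6 CPM in pGFP and 13.7, 13.1 and 15.3 CPM with p53, apart but not called (log2 0.28 ± 0.13, adjusted P = 0.23). SEMA4A, which acts on T cells and vessels, had 1.31, 0.750 and 0.966 CPM in pGFP and 2.71, 2.35 and 1.88 CPM with wild type p53 at 24 h, all above the controls (log2 1.20 ± 0.27, adjusted P = 0.00087). At 6 h its values were 0.707, 0.698 and 1.08 CPM against 1.07, 1.68 and 1.37 CPM, which overlap (adjusted P = 0.12). SEMA4B rose by 0.62 ± 0.15 (adjusted P = 0.0020), from 23.7 ± 4.79 to 36.5 ± 2.82 CPM.

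SEMA4F, a class 4 member known from neurons and glia, fell at 24 h. It was 43.7, 44.9 and 43.3 CPM in pGFP and 25.8, 33.1 and 30.4 CPM with wild type p53, a wide gap between the groups (log2 −0.56 ± 0.09, adjusted P = 1.0e-05). At 6 h it was 29.7, 28.3 and 28.0 CPM in pGFP and 26.5, 26.8 and 27.7 CPM with p53, which was not called (adjusted P = 0.73). SEMA6C, a transmembrane ligand of the A-type plexins, fell from 9.79 ± 0.837 to 6.44 ± 0.720 CPM at 24 h (log2 −0.60 ± 0.14, adjusted P = 0.0011). SEMA6A, SEMA6B, SEMA6D, SEMA4C, SEMA4G and SEMA7A were not called at either time, with log2 differences between −0.38 ± 0.19 (SEMA4G) and 0.40 ± 0.18 (SEMA6A) at 24 h. Of the exon bases of SEMA4G, 28.0% overlap MRPL43 on the opposite strand, which was at 43.2 to 64.9 CPM, and since no source says whether strand was used in counting, the level of SEMA4G is uncertain.

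Among the receptors all 3 B-type plexins rose at 24 h, as did both neuropilins. PLXNB3 (chrX:153764196-153779346) was close to silent in pGFP, with 0.121, 0.153 and 0.0873 CPM at 6 h, or 6, 7 and 5 reads. With wild type p53 it had 11.1, 10.0 and 12.6 CPM, a rise of 93.2-fold (log2 6.54 ± 1.23, adjusted P = 0.0011). At 24 h it went from 0.346, 0.341 and 0.276 CPM in pGFP to 53.4, 45.9 and 34.6 CPM with wild type p53, 138-fold (log2 7.11 ± 1.10, adjusted P = 1.2e-05). The lowest library with p53 was thus far above the highest without at both times. Part of the PLXNB3 exons, 20.4%, is shared on the same strand with SRPK3, a muscle kinase gene. SRPK3 had at most 1.83 CPM in any library and, with wild type p53, 1.93% to 5.45% of the PLXNB3 level. Its counts were higher with wild type p53 as well, at 24 h 1, 1 and 1 reads in pGFP against 73, 41 and 40. How reads of the shared bases were assigned was not tested.

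PLXNB2, a broadly expressed receptor of class 4 semaphorins, rose from a high level. It was 95.0, 93.5 and 75.9 CPM in pGFP and 177, 163 and 162 CPM with wild type p53 at 6 h (log2 0.92 ± 0.17, adjusted P = 0.0011). At 24 h it was 81.8, 94.6 and 96.1 CPM against 238, 242 and 211 CPM (log2 1.34 ± 0.18, adjusted P = 1.3e-06). The groups were apart at both times, and in CPM this was the largest gain of any member. PLXNB1, the SEMA4D receptor, rose at 24 h from 10.9 ± 0.229 to 16.5 ± 1.07 CPM (log2 0.60 ± 0.17, adjusted P = 0.0057).

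PLXND1 (chr3:129555214-129606676), the receptor of SEMA3E that shapes vessels, had the smallest P of all members at 24 h and was the only one to fall by at least 2-fold. Its values were 33.4, 25.1 and 28.3 CPM in pGFP and 12.1, 12.0 and 10.7 CPM with wild type p53 (log2 −1.31 ± 0.11, adjusted P = 6.5e-09). The 2 groups were far apart, with 12.1 CPM as the highest value with p53 and 25.1 CPM as the lowest without. At 6 h PLXND1 was 5.13, 5.08 and 4.71 CPM in pGFP and 5.02, 5.23 and 5.73 CPM with wild type p53, and the groups overlapped (adjusted P = 0.76). PLXNA1, a receptor that pairs with neuropilins, was at 144 ± 15.1 and 161 ± 23.2 CPM at 24 h (log2 0.16 ± 0.09, adjusted P = 0.16). PLXNA3, another receptor of the neuropilin complex, was at 25.7 ± 5.31 and 37.9 ± 6.50 CPM, which missed the threshold (log2 0.56 ± 0.23, adjusted P = 0.065) and passed it with the replicate block (0.57 ± 0.11, adjusted P = 0.00013). PLXNC1, the receptor of SEMA7A, stayed below 0.71 CPM in every library.

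Both neuropilins rose at 24 h and were not called at 6 h. NRP1, a receptor of SEMA3A and of VEGF, was 3.20, 3.70 and 3.06 CPM in pGFP and 10.5, 7.00 and 5.46 CPM with wild type p53 at 24 h. All 3 libraries with p53 were above the controls, although they spread from 5.46 to 10.5 CPM (log2 1.20 ± 0.27, adjusted P = 0.00081). At 6 h it was 2.67, 1.92 and 4.0 CPM in pGFP and 2.12, 2.32 and 3.40 CPM with p53, fully overlapping. NRP2, the co-receptor of SEMA3F, went from 5.62 ± 1.69 to 8.70 ± 1.07 CPM at 24 h (log2 0.63 ± 0.20, adjusted P = 0.017). That call was lost without replicate 1 of pGFP (0.14) or replicate 3 of wild type p53 (0.069), without a filter on low counts (0.062) and in a fit of only these groups (0.057), in a range of 1.5e-05 to 0.14 over 39 alternatives.

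SEMA5A, SEMA5B, PLXNA2 and PLXNA4 did not pass the filter. SEMA5A and PLXNA2 stayed at or below 0.147 CPM in every library. PLXNA4 had 0 reads in all 3 pGFP libraries at 6 h and 0.069 to 0.204 CPM at 24 h. SEMA5B, which belongs to a class with thrombospondin repeats, had 0, 0 and 2 reads in pGFP at 24 h, 0 in every library of RW mutant p53, and 13, 11 and 6 reads with wild type p53. The 3 wild type libraries lay above all pGFP libraries, and SEMA5B was called in the fit without a filter (adjusted P = 0.00098), at counts that give no usable fold.

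No member passed the test between RW mutant p53 and pGFP. At 6 h and at 24 h 0 of 27 members were called, at a background of 0.00479% (1 gene of 20875) each time. An unadjusted P under 0.05 was reached by 0 members at both times, beside 188 genes at 6 h and 176 at 24 h, and DESeq2 called 0 members as well. The differences of PLXNB3 had SEs of 2.25 and 1.62 in the fit as labelled, which holds the 2 libraries with conflicting titles. Apart from PLXNB3, the log2 differences did not exceed 0.55 (PLXNC1, −0.55 ± 0.52) at 6 h and 0.34 (SEMA6D, −0.34 ± 0.47) at 24 h, with a median SE of 0.18. PLXNB3 itself had 0.311, 0.423 and 0.132 CPM with the mutant at 24 h, which overlaps pGFP and lies apart from every library of wild type p53. Wild type against RW mutant p53 gave 5 of 27 members at 6 h (8.28% of all genes) and 15 at 24 h (35.3%). The set of 24 h was that against pGFP with PLXNA3 added (log2 0.68 ± 0.23, adjusted P = 0.024), a call lost without replicate 1 of wild type p53 or replicate 2 or 3 of RW mutant p53 (0.079 to 0.15). Leaving out single libraries also lost SEMA3B (4 libraries, 0.05 to 0.16) and NRP2 (3 libraries, 0.051 to 0.14) at 24 h and SEMA3G (4 libraries, 0.054 to 0.12) at 6 h, each by omission of libraries of these groups. With the replicate block 18 members were called at 24 h (46.4% of all genes), with SEMA4C, SEMA6A and SEMA6B added. It shares the wild type libraries with the comparison with pGFP.

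Time alone moved much of the family in cells without functional p53. From 6 h to 24 h 13 members rose and 3 fell in pGFP, 16 of 27 at a background of 40.1%, and 13 rose and 3 fell with RW mutant p53 at a background of 39.3%. Of the 16 members in each, 13 were called in both. Leaving out single libraries lost the calls of PLXNA1, PLXNA3, PLXNC1, SEMA3D and SEMA6A in pGFP (adjusted P of up to 0.2). With RW mutant p53 it lost those of NRP2, PLXNA1, SEMA4B and SEMA4C (up to 0.13). PLXND1 rose most securely, by 2.54 ± 0.11 on the log2 scale in pGFP (adjusted P = 4.5e-14) and by 2.23 ± 0.11 with RW mutant p53 (adjusted P = 9.9e-13). SEMA3F rose by 2.64 ± 0.32 and 2.93 ± 0.35, SEMA3B by 1.46 ± 0.30 and 1.5 ± 0.31, and SEMA6B by 1.36 ± 0.20 and 1.68 ± 0.21. SEMA3C (−0.81 ± 0.14 and −0.82 ± 0.14), SEMA3E (−0.69 ± 0.10 and −0.77 ± 0.10) and PLXNA1 (−0.26 ± 0.09 in each) fell, PLXNA1 with a call that was lost without a filter on low counts (adjusted P of 0.10 and 0.14) and with at least 10 counts required in every library (0.058 and 0.067). What changes between the times besides the vector's age, such as density or the harvest itself, cannot be told apart.

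The response to wild type p53 differed between the times for 4 of 27 members in the test of that difference, where 4.90% of all genes were called. PLXND1 had a response 1.42 ± 0.15 lower at 24 h than at 6 h on the log2 scale (adjusted P = 3.2e-05), since it went from 4.97 ± 0.228 to 28.9 ± 4.14 CPM in pGFP but only from 5.33 ± 0.367 to 11.6 ± 0.782 CPM with wild type p53. SEMA4F had the same shape at a smaller size, from 28.7 ± 0.912 to 44 ± 0.828 CPM in pGFP and from 27 ± 0.646 to 29.8 ± 3.70 CPM with p53 (−0.48 ± 0.12, adjusted P = 0.021). SEMA4D (0.74 ± 0.18, adjusted P = 0.018) and NRP1 (1.33 ± 0.38, adjusted P = 0.042) had the larger response at 24 h. PLXND1 kept its call whichever library was left out, NRP1 lost it without any of 10 libraries (adjusted P of 0.051 to 0.16), SEMA4F without any of 5 (0.051 to 0.075) and SEMA4D without replicate 1 of wild type p53 at 24 h (0.075) or replicate 2 at 6 h (0.054). For PLXNB3 this difference was 0.57 ± 2.26 and for SEMA3G 0.10 ± 0.62. The time dependence of their response was thus not resolved in the fit as labelled. That fit holds the 2 libraries with conflicting titles, which lie apart from their groups for PLXNB3, and all groups share an estimate of spread. Fits with these libraries regrouped or left out were run, but their SE of this difference is not given here.

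The lesion-bearing vector without inhibitor changed both ligands and receptors at 24 h. With p53 O6-meG 9 members were higher and 4 lower than in pGFP, 13 of 27 at a background of 29.3%. With the replicate block 16 were called (40.9% of all genes), with NRP2, SEMA4C and SEMA6B added. PLXNB3 had 56.0, 37.0 and 25.4 CPM, above all pGFP libraries (log2 6.93 ± 1.10, adjusted P = 2.2e-05). PLXND1 had 13.7, 12.3 and 11.5 CPM, below all of them (−1.21 ± 0.11, adjusted P = 3.3e-08). SEMA3D, a secreted ligand, was called here (−0.60 ± 0.19, adjusted P = 0.019) and not with wild type p53, a difference between vectors that was not tested. Calls of PLXNB1 (adjusted P = 0.048), NRP1, SEMA3D, SEMA3F and SEMA4B were each lost on leaving out at least 1 library, that of PLXNB1 on leaving out any of 19, with adjusted P values of at most 0.26.

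With p53 TM PLXNB2 and PLXNB3 were called against pGFP at 24 h, 2 of 27 where 9.20% of all genes were called (4 of 27 with the replicate block, where 17.9% were, adding PLXND1 and SEMA4D). PLXNB3 was 30.2, 14.4 and 9.26 CPM, a wide spread but in each library far above the 0.346 CPM of the highest pGFP library (log2 5.79 ± 1.09, adjusted P = 0.0011). PLXNB2 was 203, 177 and 154 CPM, all above pGFP and all below wild type p53 (0.97 ± 0.17 against pGFP, adjusted P = 0.00077). Set against wild type p53 directly, p53 TM had 3 members higher and 6 lower, 9 of 27 at a background of 18.5%. With the replicate block 14 were called, where 32.6% of all genes were.

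In each of the 9 the difference from wild type p53 had the opposite sign to that between wild type p53 and pGFP, and the wild type libraries are shared by both comparisons. PLXND1 was 22.3, 25.1 and 22.3 CPM with p53 TM, above every wild type library and at or below the lowest pGFP library (log2 1.00 ± 0.11, adjusted P = 4.1e-06). SEMA4F was 38.1, 48.7 and 42.9 CPM, above all wild type libraries (0.54 ± 0.09, adjusted P = 0.00015), and SEMA6C was higher too (0.49 ± 0.14). NRP1 was 4.27, 2.73 and 2.60 CPM, below all wild type libraries and around pGFP (−1.27 ± 0.27, adjusted P = 0.0018). SEMA4D was 18.4, 14.4 and 13.3 CPM, lower than every library of wild type p53 (−0.74 ± 0.13, adjusted P = 0.00034). NRP2 (−0.83 ± 0.20), SEMA3G (−1.18 ± 0.36), SEMA4A (−0.77 ± 0.26) and SEMA4B (−0.47 ± 0.15) were lower as well. The calls of SEMA3G, SEMA4A, SEMA4B and SEMA6C were each lost on leaving out single libraries of these groups, with adjusted P values of 0.056 to 0.20, whereas the other five kept theirs. PLXNB2 (−0.37 ± 0.17, adjusted P = 0.14) and PLXNB3 (−1.32 ± 0.74, adjusted P = 0.23) were not called against wild type p53 as labelled. Both were called at 24 h with the 2 conflicting 6 h libraries regrouped in the fit (PLXNB2 −0.37 ± 0.11, adjusted P = 0.011, and PLXNB3 −1.32 ± 0.27, adjusted P = 0.00087) or left out of it (adjusted P of 0.017 and 0.0015).

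Against p53 O6-meG, which carries the same vector without O6-bzG, p53 TM differed in 5 of 27 members at 24 h, where 6.50% of all genes were called, and in 9 with the replicate block, where 18.4% were. PLXND1 (0.89 ± 0.11, adjusted P = 0.00018), SEMA4F (0.45 ± 0.09, adjusted P = 0.0034) and SEMA6C (0.50 ± 0.14, adjusted P = 0.030) were higher with p53 TM, and NRP1 (−0.89 ± 0.27, adjusted P = 0.045) and SEMA4D (−0.43 ± 0.13, adjusted P = 0.046) lower. Leaving out single libraries lost SEMA6C (5 libraries), NRP1 (11) and SEMA4D (16), with adjusted P values of up to 0.21, and in a fit of only these groups PLXND1 alone kept its call.

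As a description without a test, each group was placed on the scale from pGFP (0%) to wild type p53 (100%) for the 14 members called at 24 h. The median over the members was 86.9% for p53 O6-meG and 23.4% for p53 TM. For p53 TM PLXNB2 kept the most (62.4% ± 17.4, SD, n = 3), PLXNB1 41.9% ± 51.0 and PLXNB3 39.8% ± 24.6. The means of NRP1 (−2.8% ± 21.4) and NRP2 (−24.3% ± 33.3) were below 0% but within 1 SD of it. The libraries of NRP2 were at −62.7%, −3.9% and −6.3%. For p53 O6-meG SEMA3B kept the least, 34.0% ± 7.4. The 3 libraries of p53 TM had medians of 44.2%, 17.9% and 7.9%, and those of p53 O6-meG 93.2%, 88.5% and 65.7%. Both scales use the same pGFP and wild type libraries that chose the members.

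At 6 h, as labelled, p53 O6-meG and p53 TM gave no calls in the family. Against pGFP 0 of 27 members were called for p53 O6-meG (0.350% of all genes) and 0 for p53 TM (0.0814%). An unadjusted P under 0.05 was reached by 5 and 4 members, beside 2512 and 1542 of all 20875 genes, and DESeq2 called 1 member in each. Against wild type p53, p53 TM had 0 calls (0.0766%), 9 at an unadjusted P under 0.05 (3268 genes) and 3 by DESeq2. Against p53 O6-meG it had 0 calls (0.00%), 0 unadjusted (395 genes) and 0 by DESeq2. The share of all genes called by DESeq2 is not given here. PLXNB3 shows the 2 libraries apart from their groups: it was 7.86, 0.0737 and 5.69 CPM in the libraries labelled p53 O6-meG and 0.0451, 7.88 and 0.0892 CPM in those labelled p53 TM. PLXNB2 was 157, 88.3 and 124 CPM in the former and 88.3, 153 and 90.1 CPM in the latter. In both genes replicate 2 lay with the other group, as CDKN1A did.

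Grouped by the first part of the title, p53 O6-meG differed from pGFP at 6 h in 4 of 27 members (7.35% of all genes), namely SEMA3F, SEMA3G, PLXNB2 and PLXNB3. p53 TM then differed from wild type p53 in 10 (14.6%) and from p53 O6-meG in 6 (8.30%), all lower. p53 TM against pGFP stayed at 0 of 27 (0.316%), with 4 at an unadjusted P under 0.05. Against wild type p53 PLXNB3 had the largest difference (log2 −7.26 ± 0.52, adjusted P = 9.4e-11). Without both libraries 28 members passed the filter. The counts were then 2 (4.85% of all genes), 5 (10.9%) and 2 (4.10%), and 0 (0.202%) for p53 TM against pGFP, with 3 at an unadjusted P under 0.05. For the unadjusted counts of both groupings the share of all genes is not given here. PLXNB2 and PLXNB3 were called under both treatments of the libraries in all these comparisons but that of p53 TM with pGFP. The median part of the wild type p53 response kept by the 5 members was 39.7% for p53 O6-meG and 26.8% for p53 TM as labelled, 63.1% and −0.5% by the first part of the title, and 59.4% and −0.5% without both.

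Around the receptors, 59 partner genes were sorted into co-receptors, neuropilin ligands with processing enzymes, GTPases with their regulators, and cytoskeletal effectors. Of the 54 tested, 9 rose and 0 fell at 6 h with wild type p53, beside the 8.75% of all genes called, and 21 rose and 6 fell at 24 h, 27 of 54 beside the 34.9% of all genes. Of 10 tested co-receptors 3 rose and 3 fell at 24 h. NRCAM, a cell adhesion molecule that pairs with neuropilins, rose from 4.38 ± 1.23 to 40.2 ± 15.3 CPM (log2 3.20 ± 0.38, adjusted P = 4.2e-07) and MET, the HGF receptor that partners B-type plexins, from 131 ± 14.3 to 205 ± 11.4 CPM (0.65 ± 0.09, adjusted P = 4.0e-06). TREM2, a partner of A-type plexins on myeloid cells, had 0 reads in pGFP and 0.142 to 0.259 CPM with wild type p53. It is counted among the co-receptors that rose, at a level that gives no usable fold. With 0 reads in those pGFP libraries, TREM2 passed the filter on low counts only through other groups. FLT4, a VEGF receptor, fell (−0.77 ± 0.15, adjusted P = 0.00017).

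Of the 8 neuropilin ligands and processing enzymes 3 rose and 0 fell at 24 h, a share near the 34.9% of all genes. These were ADAM17 (log2 0.29 ± 0.07), a sheddase, FURIN (0.28 ± 0.07), which cleaves class 3 semaphorins, and PGF (0.54 ± 0.20), a ligand of neuropilins. PGF had the larger rise at 6 h, from 7.19 ± 0.579 to 15.7 ± 1.13 CPM (1.13 ± 0.20, adjusted P = 0.00090). Of 17 tested GTPases and regulators 7 rose and 3 fell at 24 h. MRAS, a plexin substrate, rose by 1.41 ± 0.22 (adjusted P = 1.6e-05). ARHGEF11, an exchange factor bound by B-type plexins, fell by 0.37 on the log2 scale and RANBP9, a scaffold of PLXNA1, by 0.27.

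Of 19 cytoskeletal effectors 8 rose and 0 fell at 24 h with wild type p53, beside the 34.9% of all genes called. DPYSL4, a member of the collapsin response mediators that relay SEMA3A, went from 4.30 ± 0.581 to 191 ± 55.7 CPM (log2 5.47 ± 0.85, adjusted P = 1.2e-05) and had already risen at 6 h, from 1.33 ± 0.147 to 52.5 ± 5.10 CPM (5.30 ± 0.90, adjusted P = 0.00056). GSK3B (0.87 ± 0.10), a kinase of those mediators, FYN (0.65 ± 0.09), a kinase that binds A-type plexins, and PAK1 (0.61 ± 0.09), a Rac effector, rose with smaller changes. Against wild type p53 at 24 h, where 18.5% of all genes were called, p53 TM had 15 of the 54 partners called, 5 higher and 10 lower. Co-receptors had 2 higher and 2 lower, GTPases and regulators 3 higher and 1 lower, and the 8 neuropilin ligands and processing enzymes had 0 calls. Of the 19 cytoskeletal effectors 7 were lower and 0 higher, FYN by −0.48 ± 0.09 (adjusted P = 0.00050) and PAK1 by −0.40 ± 0.09 (adjusted P = 0.0020) among them.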

How the data were processed

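RNA of sorted H1299 cells was sequenced as stranded total RNA in 30 libraries (10 groups of 3). The authors aligned single reads to hg38 with STAR 2.5.3a and deposited raw counts per gene from featureCounts (Subread 1.5.2) on GENCODE 27, without normalization. The strand setting of counting is not given in the sources used here. A deposited table of normalized values was not used. The replicates are separate samples by label, and P values measure the spread between these.

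The members and lists were chosen with earlier results of these data known. Of 39359 genes, 38904 matched GENCODE v44, with all 31 members. The edgeR package (4.0.16, R 4.3.3) was used to apply filterByExpr (20875 genes kept, 27 of them members), TMM scaling and a fit over all 30 libraries without a block. Groups were compared by the quasi-likelihood test with Benjamini-Hochberg adjustment over all genes tested, and a call is an adjusted P under 0.05. The SE is the log2 fold change divided by the square root of F. Fits were tested on simulated counts with 200 genes changed in wild type p53 at 24 h. The edgeR fit recovered 140 of them, and 52 of the 92 changed 2-fold. No pairing between replicates and no conflicting labels were simulated.

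Groups follow the genotype label. For 2 libraries at 6 h the title starts with another group, which is also the one their count columns are named for. Residuals were correlated between libraries with the same replicate number in different groups. At 24 h 30 of 30 pairs were above 0.1 (0.192 to 0.627). These libraries are read as paired, but the main fit has no block, and the block is given as an alternative. At 6 h 10 of 30 pairs were above 0.1 (−0.533 to 0.229). That check holds the 2 libraries with conflicting titles in their labelled groups, so it cannot decide whether 6 h is paired. No 2 libraries of a group agreed within sampling noise (chi-square per degree of freedom of 5.51 or more).

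Members called in wild type p53 against pGFP are named with their fold change, and given per library where the change was at least 2-fold or the P was among the 8 smallest at 24 h. Members named for other comparisons were chosen after their values were seen. The PLXNB1 site was shown after the search had found it. Up to 4 partner genes per list are named by the smallest P, and 1 of them is not reported here. Alternatives were DESeq2 1.42.0, its size factors in edgeR, no filter, at least 10 counts in every library, only the groups compared, the replicate block over all libraries or within each time, the 2 libraries regrouped or dropped, and leaving out each library in turn.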

Additional observations from a re-analysis of the deposited data

Results flagged for a closer look

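For 4 members the response to wild type p53 differed between 6 h and 24 h by edgeR's quasi-likelihood test of that difference with Benjamini-Hochberg adjustment. On the log2 scale, 24 h minus 6 h, it was −1.42 for PLXND1 (lower in all 3 libraries with p53 at 24 h, overlapping at 6 h), −0.48 for SEMA4F, 0.74 for SEMA4D and 1.33 for NRP1. Without replicate 1 of wild type p53 at 24 h PLXND1 is the 1 member left. No cause was tested.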

How the results depend on the processing

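No call changed sign in 4032 checks of 104 called member values. In 3863 checks the call was kept, but 32 of the 104 values lost it in at least 1 check. Of the checks, 3120 left out 1 library, often one outside the groups compared. Counts of called members that moved by over 1.5 times follow. The share of all genes called moves with the setting too, for p53 TM against p53 O6-meG at 24 h from 6.50% to 18.4% with the block within each time. Where no such share stands in the text, a moved count is not a result about the members. For wild type p53 against pGFP at 6 h (5), at least 10 counts in every library left 2, the replicate block within each time gave 8 and only the groups compared 10. Against RW mutant p53 at 6 h (5) the stricter filter gave 2 and only the groups compared 8. For p53 O6-meG against pGFP at 6 h (0), DESeq2, no filter and the block within each time gave 1 each, the first part of the title 4 and leaving out both libraries 2 (0 to 2 without single libraries). For p53 TM against pGFP, DESeq2 gave 1 at 6 h (0) and the block within each time 4 at 24 h (2). For p53 TM against wild type p53 at 6 h (0), DESeq2 gave 3, no filter 1, the block over all libraries 1, the block within each time 6, the first part of the title 10 and leaving out both libraries 5 (0 to 5 without single libraries). At 24 h (9) the block within each time and both other treatments of the titles gave 14 each (6 to 12 without single libraries). For p53 TM against p53 O6-meG at 6 h (0) the title gave 6 and leaving out both 2 (0 to 1 without single libraries), and at 24 h (5) the block within each time gave 9, the title 10, leaving out both 9 and only the groups compared 1 (2 to 6 without single libraries). The difference between times (4) ranged from 1 to 4 without single libraries. The block rests on the pairing by replicate number, which held at 24 h. At 6 h the check could not decide it, since it holds the 2 libraries with conflicting titles. The cause of these moves was not tested, save that the stricter filter removes SEMA3F, SEMA3G and PLXNB3 from the test.

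With 3 libraries a group, small changes and members under about 1 CPM are poorly resolved. The SE of PLXNB3 in p53 TM against wild type p53 at 24 h was 0.74 as labelled, 0.27 with the first part of the title and 0.28 without both libraries.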
